A study of Mus musculus with 11 samples.

Results

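Steroid hormone receptors and the proteins that hold them ready for hormone were described by 9 genes in mouse Leydig tumor cells (MLTCs): Esr1, Esr2, Pgr, Nr3c1, Nr3c2, Pgrmc1, Pgrmc2, Fkbp4 and Fkbp5. The genes were listed by name, and every array probe whose RefSeq accession leads to 1 of these symbols was taken. This gave 17 of the 41174 probes, for 8 of the 9 genes, and no probe was named for Pgrmc2. Probes were tested where all arrays of some group had them well above background, which held for 13 of the 17 probes and 6 of the 9 genes, beside 24248 probes in all.

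MLTC-1 is a cultured line derived from a mouse Leydig cell tumor, and Leydig cells are the testosterone-producing cells of the testis. The cells had been transfected at 20 nM with a non-targeting RNA (control, 4 arrays), with siRNA1 (4 arrays) or with siRNA2 (3 arrays), and both siRNAs are short RNA duplexes against Mamld1, a gene studied for its part in testosterone production. Total RNA was taken after 48 hours per the labels, while the methods of the study place the harvest shortly after a final addition of hCG, which the labels do not name. All groups share the cell line and the transfection reagent, the cells are a tumor line rather than Leydig cells in a testis, and no untransfected cells were among the arrays. The labels number the arrays within a group without saying whether they came from separate cultures, so p-values measure the spread between these samples, which may be technical.

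Steroid receptors of the nuclear kind are transcription factors that bind a hormone and then their target genes. Before hormone arrives, the glucocorticoid, mineralocorticoid and progesterone receptors are held by the chaperones Hsp70 and Hsp90 together with co-chaperones, among them the FK506-binding immunophilins Fkbp4 (also FKBP52) and Fkbp5 (also FKBP51). These immunophilins compete for the same place on Hsp90, Fkbp4 favoring hormone binding and transport of the receptor to the nucleus and Fkbp5 lowering hormone affinity. Fkbp5 is also a classical target gene of the glucocorticoid and progesterone receptors. Pgrmc1 and Pgrmc2 are heme-binding membrane proteins of another family that have been tied to rapid progesterone effects.

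The members that differed between groups were both immunophilins, so the 250 bases before the start of each gene are shown, from RefSeq on mouse build GRCm38.p6. The Fkbp4 stretch is chr6:128438657-128438906 on the minus strand and the Fkbp5 stretch is chr17:28486150-28486399 on the minus strand, both printed 5′ to 3′ toward the gene. Capitals mark every match, on either strand, to the letters searched, which were GAANNTTC (an inverted pair of heat shock factor units), CCAAT (the CCAAT box), CAAGGTCA (a site of NR5A1, the main Leydig cell nuclear receptor) and AGAACA (the hexamer bound by glucocorticoid, mineralocorticoid and progesterone receptors).
Fkbp4: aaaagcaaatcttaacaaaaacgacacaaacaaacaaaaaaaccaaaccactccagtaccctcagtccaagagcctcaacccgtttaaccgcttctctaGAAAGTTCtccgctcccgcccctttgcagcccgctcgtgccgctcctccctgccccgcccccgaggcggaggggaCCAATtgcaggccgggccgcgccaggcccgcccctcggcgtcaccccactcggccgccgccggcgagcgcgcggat
Fkbp5: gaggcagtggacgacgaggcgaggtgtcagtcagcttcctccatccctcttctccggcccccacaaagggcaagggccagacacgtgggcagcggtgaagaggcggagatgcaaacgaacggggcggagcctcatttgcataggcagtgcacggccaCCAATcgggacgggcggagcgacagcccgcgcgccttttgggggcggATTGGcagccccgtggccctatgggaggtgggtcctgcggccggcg
The Fkbp4 stretch held 1 GAANNTTC match, which starts 151 bases before the gene, and 1 CCAAT match. The Fkbp5 stretch held 2 CCAAT matches, 1 of them on the opposite strand, and no GAANNTTC match. Neither held CAAGGTCA or AGAACA in this window. Among 32851 RefSeq windows of the same 250 bases, GAANNTTC occurred in 6.69%, CCAAT in 33.8%, AGAACA in 16.1% and CAAGGTCA in 1.33%. The stretches are GC-rich, at 63.2% for Fkbp4 and 68% for Fkbp5.

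Each array carried 45018 spots, and 58.6% to 62.6% of the spots other than control spots lay well above background. The 75th percentile of signal, by which each array was scaled, was 470 to 582 on control arrays, 601 to 774 on siRNA1 arrays and 488 to 579 on siRNA2 arrays, so siRNA1 arrays were brighter as a group before scaling. Mamld1 itself stood at 85.2% to 119% of the control mean on control arrays, 44.1% to 77.0% on siRNA1 arrays and 45.3% to 68.6% on siRNA2 arrays, with log2 fold changes of -0.93 (limma, adjusted p = 0.005705) and -0.77 (limma, adjusted p = 0.0309). Its signals were low, at 14.3 to 38.1, where the lowest signals well above background were 6.94 to 8.90. By real-time PCR, the study reported a marked reduction of Mamld1 mRNA with both siRNAs. All 8 Leydig cell markers examined were well above background on the 11 arrays, while 0 of the 3 macrophage markers on the array, 1 of 4 endothelial, 2 of 5 Sertoli cell, 2 of 4 germ cell and 2 of 4 peritubular myoid markers were. Leydig cell markers summed to 368 to 481 times the 75th percentile on control arrays. On siRNA1 arrays they summed to 336 to 387, and on siRNA2 arrays to 399 to 480. By limma after adjustment, 2 of these 8 were lower than control with siRNA1 and 1 with siRNA2. Between the siRNAs, 4 of the 8 were lower with siRNA1, and 0 were higher in any comparison. The summed endothelial markers stood at 0.640 to 0.705 times the 75th percentile on control arrays, 1.27 to 1.76 on siRNA1 arrays and 1.11 to 1.35 on siRNA2 arrays, and of these markers Cdh5 was well above background on all 11 arrays, Pecam1 on 2, and Kdr and Tek on 0. The summed Sertoli cell markers stood at 2.72 to 3.04 on control arrays, 2.45 to 3.04 on siRNA1 arrays and 4.22 to 5.08 on siRNA2 arrays, with Amh and Dhh well above background on all 11 arrays and Sox9 and Wt1 on 0. The part of these markers in the results that follow was not tested. The cultures are of a cell line, and in RNA from whole cultures fewer cells expressing a gene and less RNA per cell cannot be told apart.

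Of the 6 members with a tested probe, 2 differed between siRNA1-transfected and control MLTCs at an adjusted p of 0.05 or less for the brightest probe, against a background of 29.3% of 11816 genes. Fkbp5 rose with siRNA1, as 10.6% of genes did, and Fkbp4 fell, as 18.7% did. With siRNA2, 0 of the 6 passed by limma, against a background of 20.2% (8.01% higher and 12.2% lower), and 0 of 6 passed limma at an unadjusted p of 0.05. By the exact permutation test 1 of 6, Pgrmc1, was under 0.05, at the smallest p that test allows. Between the siRNAs, 1 of 6 passed, against a background of 26.3% (11.8% higher and 14.4% lower with siRNA1), and this was Fkbp5, higher with siRNA1. No member changed 2-fold in any comparison, where the background was 3.05%, 2.41% and 3.53% of genes. Counted by probe, 5 of the 13 passed with siRNA1 (background 27%), 1 of 13 with siRNA2 (18.4%) and 3 of 13 between the siRNAs (23.5%).

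**Figure D1:**
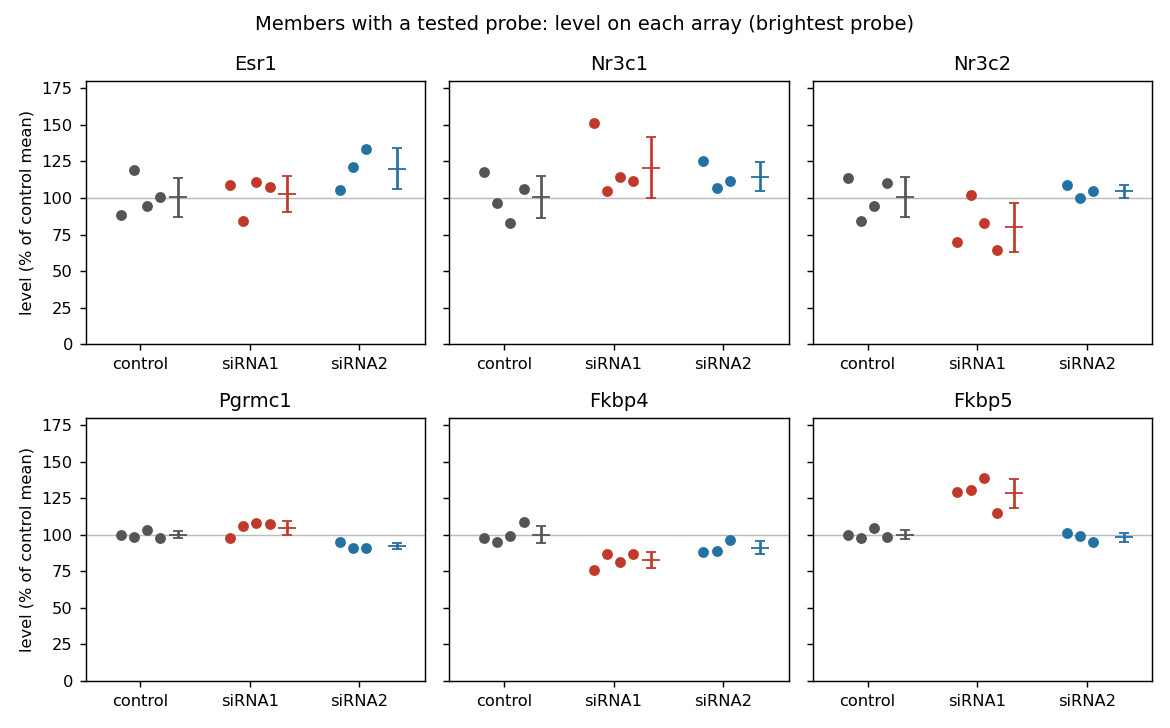
Level of the 6 members with a tested probe on each of the 11 arrays, by the brightest probe, as percent of the control mean (points, arrays; bar and whisker beside them, mean and SD). The siRNA1 arrays lay at 115% to 139% for Fkbp5 and at 76.0% to 87.1% for Fkbp4, outside the control arrays, while the other members overlapped the control arrays with siRNA1.

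Among the nuclear receptors, the classical estrogen receptor Esr1 was measured by a probe printed on 10 spots and by a second, dimmer probe. By the first, the control arrays stood at 88.2%, 119%, 94.6% and 101% of the control mean. With siRNA1 the arrays gave 109%, 84.3%, 111% and 108%, and with siRNA2 106%, 121% and 133%. Array 2 of siRNA1 lay below the other siRNA1 arrays, and all groups overlapped. The order of the means was siRNA2 at 120.2% ± 13.9 (SD, n = 3), siRNA1 at 103% ± 12.4 (SD, n = 4) and control at 101% ± 13.3 (SD, n = 4), and no neighbors differed beyond their spread. The log2 fold change with siRNA2 was 0.26 (95% interval -0.04 to 0.56, limma, adjusted p = 0.233) and that with siRNA1 was 0.03 (-0.24 to 0.31, limma, adjusted p = 0.882). The second Esr1 probe gave nearly the same sizes, 0.26 with siRNA2 (-0.13 to 0.65) and 0.05 with siRNA1 (-0.31 to 0.41). Its siRNA2 arrays spread widely, at 92.6%, 150.0% and 125% of the control mean.

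Within slides, the first Esr1 probe differed between siRNA2 and control by 0.41, 0.36 and 0.05 on the log2 scale on slides 1, 2 and 3. The second probe differed by 0.36 and 0.70 on slides 1 and 2 and by -0.19 on slide 3. An increase of Esr1 of up to 0.56 by the first probe was therefore within the interval with siRNA2, and the 11 arrays did not settle it.

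Esr2, the estrogen receptor beta, was measured by 1 probe printed on 10 spots of each array. Its signal was 1.63 to 2.12 over the 11 arrays, near the negative control spots at 1.61 to 2.04. Of its 110 spots, 3 were well above background, 2 on control array 1 and 1 on siRNA1 array 2, and the brightest of them read 51.4. After outlier-marked spots were left out, these arrays kept 8 and 9 of 10 spots. The averages of the kept spots were 1.83 and 2.12 there. Pgr, the progesterone receptor, was measured by 1 probe at 1.61 to 2.08, well above background on 0 of 11 arrays. A change in Esr2 or Pgr was not detectable at these signals, and no fold change is given.

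Nr3c1, the glucocorticoid receptor, was measured by 4 probes, and all were well above background on the 11 arrays. By the brightest, the control arrays stood at 117%, 96.5%, 83.2% and 106% of the control mean. With siRNA1 the arrays gave 151%, 105%, 115% and 112%, and with siRNA2 126%, 107% and 112%. Array 1 of siRNA1 was the highest, and the groups overlapped. The order of the means was siRNA1 at 121% ± 20.8 (SD, n = 4), siRNA2 at 115% ± 9.81 (SD, n = 3) and control at 101% ± 14.5 (SD, n = 4), and no neighbors differed beyond their spread. The log2 fold change was 0.26 with siRNA1 (95% interval -0.04 to 0.56, limma, adjusted p = 0.193) and 0.19 with siRNA2 (-0.13 to 0.52, limma, adjusted p = 0.437).

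The second Nr3c1 probe stood at 93.8% to 108% on control arrays and at 169%, 122%, 163% and 93.2% on siRNA1 arrays. Array 4 of siRNA1 lay below every control array and the others above every control array. The difference was 0.41 on the log2 scale (95% interval 0.02 to 0.80, limma, adjusted p = 0.109). The remaining Nr3c1 probes, the third and the dimmest, gave 0.20 and 0.39 with siRNA1, and on them too array 4 was the lowest siRNA1 array, at 83.4% and 78.2%. All 4 Nr3c1 probes thus had positive differences with siRNA1, and 0 of 4 passed. With siRNA2 these 3 dimmer Nr3c1 probes differed from control by 0.08, -0.02 and 0.04.

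The calls for Nr3c1 changed when slide entered the fit. The 3 slides each held arrays of every group, and siRNA1 array 4 shared slide 1 with control array 4 and siRNA2 array 3. In a fit with slide as a block, the brightest Nr3c1 probe differed by 0.34 with siRNA1 (limma, adjusted p = 0.0255) and the second by 0.44 (limma, adjusted p = 0.0426). The third and the dimmest did not pass there, at 0.20 (limma, adjusted p = 0.336) and 0.41 (0.0762). Calls with siRNA1 were more frequent with this block in general, at 46 in place of 34 of the 96 list genes described below. Within slides 1, 2 and 3 the brightest Nr3c1 probe was 0.08, 0.40 and 0.51 above control with siRNA1, and the second was -0.09, 0.59 and 0.70. Without siRNA1 array 4, the second Nr3c1 probe passed with siRNA1 (0.58, limma, adjusted p = 0.0132) and between the siRNAs (0.51, limma, adjusted p = 0.0353). The part of slide in the lower values of slide 1 was not tested.

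Nr3c2, the mineralocorticoid receptor, which also binds glucocorticoids, was measured by 3 probes. Of these, 2 were well above background on 0 of 11 arrays, with signals of 1.58 to 2.22, and the third on all 11. By that probe, the control arrays stood at 114%, 84.0%, 94.8% and 110.4% of the control mean. With siRNA1 the arrays gave 69.9%, 102%, 83.1% and 64.3%, and with siRNA2 109%, 99.88% and 105%. Array 2 of siRNA1 was the highest of its group and overlapped the control arrays, and 3 of 4 siRNA1 arrays lay below every control array. The means were 79.9% ± 16.9 (SD, n = 4) with siRNA1, 101% ± 13.9 (SD, n = 4) in control and 104% ± 4.41 (SD, n = 3) with siRNA2, and control and siRNA2 did not differ beyond their spread.

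The log2 fold change of Nr3c2 was -0.35 with siRNA1 (95% interval -0.67 to -0.02, limma, adjusted p = 0.107), -0.41 between siRNA1 and siRNA2 (-0.76 to -0.06, limma, adjusted p = 0.0886) and 0.06 with siRNA2 (-0.29 to 0.41, limma, adjusted p = 0.854). Without siRNA1 array 2, Nr3c2 passed with siRNA1 (-0.47, limma, adjusted p = 0.0230) and between the siRNAs (-0.54, limma, adjusted p = 0.0200). Within slides 1, 2 and 3 the differences of Nr3c2 with siRNA1 were -0.78, -0.04 and -0.48. Its signal was low, at 36.3 to 59.2, and with extreme local backgrounds replaced and normexp correction the difference was -0.25 (limma, adjusted p = 0.0498).

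Pgrmc1, the heme-binding membrane component tied to progesterone, was measured by 1 probe with signals of 40698 to 76737. The control arrays stood at 99.86%, 98.7%, 103% and 98.0% of the control mean. With siRNA1 the arrays gave 97.8%, 106%, 108% and 107%, and with siRNA2 94.7%, 91.2% and 90.6%. Array 1 of siRNA1 lay below the other siRNA1 arrays, and the siRNA2 arrays lay below every other array. Separation of this kind between siRNA2 and control arrays was met by 31.1% of genes. The log2 fold change of Pgrmc1 with siRNA2 was -0.12 (95% interval -0.28 to 0.04, limma, adjusted p = 0.323, two-sided exact permutation p = 0.0286, the smallest that 3 arrays against 4 allow).

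With siRNA1, Pgrmc1 differed from control by 0.07 (95% interval -0.08 to 0.21, limma, adjusted p = 0.521). Between the siRNAs, Pgrmc1 differed by 0.18 (0.02 to 0.34, limma, adjusted p = 0.0957), where 35.1% of genes had groups that did not overlap. Within slides 1, 2 and 3 Pgrmc1 was 0.24, 0.23 and 0.05 higher with siRNA1 than with siRNA2. In the fit as reported, the 95% intervals for Pgrmc1 against control reached no further than 0.28 log2 units in size. Under other processing the fitted difference reached -0.30 with siRNA1 and -0.37 with siRNA2. The related gene Pgrmc2 was not measured by a named probe.

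Fkbp5, the immunophilin that lowers hormone affinity of the receptor complex, was measured by 3 probes. By the brightest, the control arrays stood at 99.5%, 97.6%, 104% and 98.8% of the control mean. With siRNA1 the arrays gave 129%, 131%, 139% and 115%, and with siRNA2 101%, 98.8% and 94.9%. Every siRNA1 array lay above every control and siRNA2 array, and the control and siRNA2 arrays overlapped. Separation of siRNA1 from control arrays was met by 31.8% of genes.

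Fkbp5 rose with siRNA1 by 0.36 on the log2 scale by this probe (SE 0.077, 28.0% higher, limma, adjusted p = 0.00559, two-sided exact permutation p = 0.0286). With siRNA2 the difference was -0.03 (95% interval -0.21 to 0.16, limma, adjusted p = 0.887). The difference between the siRNAs was 0.38 (0.20 to 0.56, limma, adjusted p = 0.00642), so the responses to the siRNAs differed by more than the spread. The unscaled signals did not overlap either, at 1914 to 2533 on control arrays and 2939 to 4484 on siRNA1 arrays. However, siRNA1 arrays were brighter as a group before scaling, so this lack of overlap is no separate evidence of a rise. Within slides 1, 2 and 3 Fkbp5 was 0.22, 0.37 and 0.39 above control with siRNA1.

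The second Fkbp5 probe stood at 92.0%, 108%, 115% and 87.0% of the control mean on control arrays and at 129%, 161%, 168% and 132% on siRNA1 arrays. On siRNA2 arrays it stood at 100.3%, 116% and 99.1%. The siRNA1 arrays lay above all others. The second Fkbp5 probe rose by 0.55 with siRNA1 (SE 0.12, limma, adjusted p = 0.00694), and the difference with siRNA2 was 0.07 (95% interval -0.23 to 0.36, limma, adjusted p = 0.801). Between the siRNAs it differed by 0.48 (limma, adjusted p = 0.0225), a call that was lost without siRNA1 array 2 (0.44, limma, adjusted p = 0.0543), siRNA1 array 3 (0.42, 0.0647), siRNA2 array 1 (0.45, 0.0659) or siRNA2 array 3 (0.44, 0.0828). For the second Fkbp5 probe this difference was also lost with no filter on dim probes (adjusted p = 0.0553) and by the test of the methods after adjustment (0.0693).

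The third Fkbp5 probe followed another pattern. It stood at 86.5%, 109.6%, 105% and 101% of the control mean on control arrays and at 157%, 155%, 144% and 153% on siRNA1 arrays. On siRNA2 arrays it stood at 142%, 152% and 139.9%, so the arrays of both siRNAs lay above the control arrays and overlapped each other. It rose by 0.61 with siRNA1 (SE 0.086, limma, adjusted p = 0.000441) and by 0.53 with siRNA2 (SE 0.093, limma, adjusted p = 0.00245). The difference between the siRNAs was 0.08 (95% interval -0.13 to 0.28, limma, adjusted p = 0.612).

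Thus 3 of 3 Fkbp5 probes rose with siRNA1 and 1 of 3 with siRNA2. All 3 share an accession, and where on the transcript they lie was not used here. The third probe was the only 1 of the 13 tested member probes to pass with siRNA2, and within slides 1, 2 and 3 it was 0.48, 0.54 and 0.54 above control there. With normexp background correction no Fkbp5 probe passed with siRNA1, at 0.08, 0.37 and 0.60 (limma, adjusted p = 0.783, 0.267 and 0.0573), and the third differed by 0.49 with siRNA2 (0.240). By the mean over the 3 probes, Fkbp5 differed from control by 0.50 with siRNA1 and by 0.19 with siRNA2 (limma, adjusted p = 0.163).

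**Figure D2:**
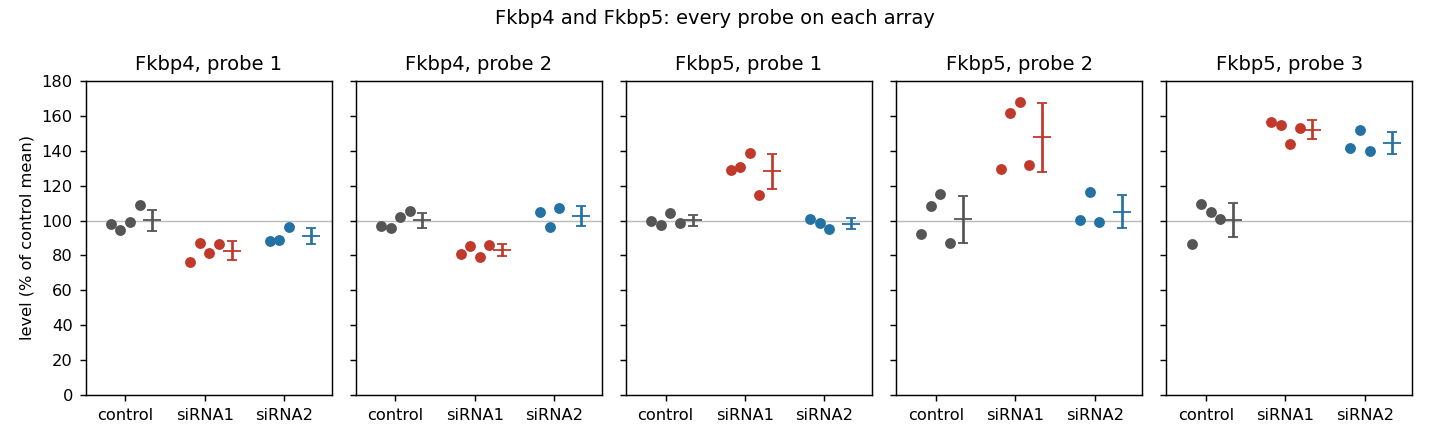
Level of each Fkbp4 and Fkbp5 probe on the 11 arrays, as percent of the control mean (points, arrays; bar and whisker, mean and SD). The third Fkbp5 probe lay at 139.9% to 152% on siRNA2 arrays, while the first and second lay at 94.9% to 116% there, and both Fkbp4 probes lay below control on all siRNA1 arrays.

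Fkbp4, the immunophilin that favors hormone binding, was measured by 2 probes. By the brighter, the control arrays stood at 97.8%, 94.8%, 99.2% and 109% of the control mean. With siRNA1 the arrays gave 76.0%, 87.1%, 81.2% and 86.7%, and with siRNA2 88.2%, 88.8% and 96.4%. The siRNA1 arrays lay below all others, and the siRNA2 arrays lay between and overlapped the control arrays. Fkbp4 fell by 0.27 on the log2 scale with siRNA1 (SE 0.079, 17.4% lower, limma, adjusted p = 0.0247, two-sided exact permutation p = 0.0286).

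With siRNA2 the brighter Fkbp4 probe differed from control by -0.14 (95% interval -0.32 to 0.05, limma, adjusted p = 0.337) and between the siRNAs by -0.14 (-0.33 to 0.05, limma, adjusted p = 0.277). The order of its means was control at 100.1% ± 6.01 (SD, n = 4), siRNA2 at 91.1% ± 4.55 (SD, n = 3) and siRNA1 at 82.8% ± 5.25 (SD, n = 4), and siRNA2 did not differ from either neighbor beyond the spread. The second Fkbp4 probe stood at 96.9%, 95.9%, 102% and 106% on control arrays, at 81.0%, 85.7%, 78.9% and 86.2% on siRNA1 arrays and at 105%, 96.0% and 107% on siRNA2 arrays. It fell by 0.27 with siRNA1 (SE 0.074, limma, adjusted p = 0.0188) and differed by 0.04 with siRNA2 (95% interval -0.14 to 0.21, limma, adjusted p = 0.8294). Between the siRNAs it was lower with siRNA1 by -0.31 (limma, adjusted p = 0.0166), a call lost without siRNA1 array 3 (-0.28, limma, adjusted p = 0.0504) or siRNA2 array 3 (-0.27, 0.0678) and with median scaling (-0.27, 0.136).

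The fall of Fkbp4 was seen after scaling. Unscaled signals of the brighter probe were 11186 to 14499.6 on control arrays and 11773 to 15784 on siRNA1 arrays, and they overlapped. Scaled by the median of each array in place of the 75th percentile, the brighter Fkbp4 probe differed by -0.23 (limma, adjusted p = 0.160) and the second by -0.23 (limma, adjusted p = 0.154), and after quantile normalization by -0.17 (limma, adjusted p = 0.0854) and -0.19 (limma, adjusted p = 0.0574). With normexp background correction Fkbp4 differed by -0.62 (limma, adjusted p = 0.218) by the brighter probe and -0.55 (0.307) by the second, and with extreme local backgrounds replaced first the second differed by -0.19 (0.0747). With no filter on dim probes the adjusted p of the brighter Fkbp4 probe was 0.0533. Leaving out 1 array also ended the call of the brighter probe: without control array 3 it was -0.28 (limma, adjusted p = 0.0524), without control array 4 -0.23 (0.0733), without siRNA1 array 1 -0.23 (0.0691) and without siRNA1 array 3 -0.27 (0.0655). For the second Fkbp4 probe the call ended without control array 4 (-0.24, limma, adjusted p = 0.0563) or siRNA1 array 3 (-0.25, 0.0605). With slide as a block the brighter probe differed by -0.29 (limma, adjusted p = 0.00574), and within slides 1, 2 and 3 by -0.33, -0.24 and -0.34.

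**Figure D3:**
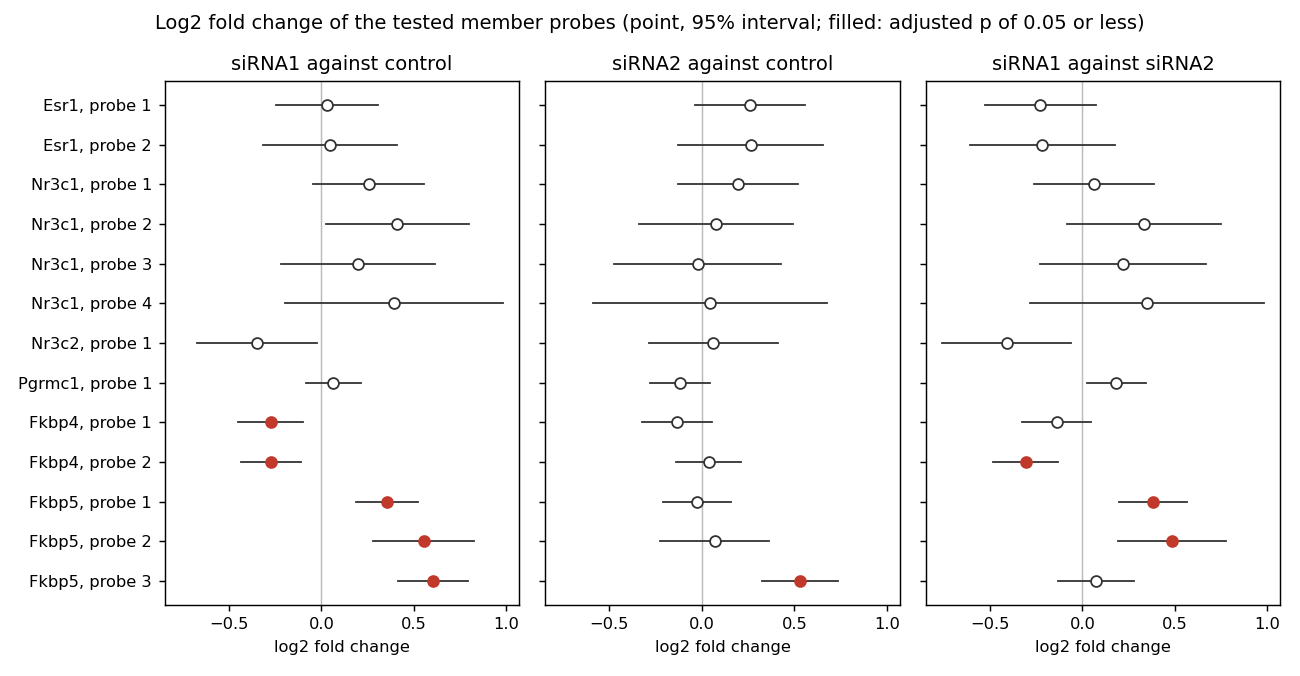
Log2 fold change (point) with its 95% interval (line) for the 13 tested member probes in the 3 comparisons, filled where the adjusted p is 0.05 or less. Filled points stand only at Fkbp4 and Fkbp5, with 5 for siRNA1, 1 for siRNA2 and 3 between the siRNAs.

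The level of Fkbp5 relative to Fkbp4 on the same array is unchanged by any scaling that multiplies a whole array by 1 factor. On the log2 scale and relative to the control mean, this ratio by the brightest probes was 0.03, 0.04, 0.07 and -0.14 on control arrays. It was 0.76, 0.59, 0.77 and 0.40 on siRNA1 arrays, and 0.20, 0.15 and -0.02 on siRNA2 arrays. The ratio on siRNA1 arrays was thus 1.32 to 1.71 times the control mean, above all other arrays, and siRNA2 and control arrays overlapped. The pair was chosen after its values were seen, so the ratio is a description with no test.

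**Figure D4:**
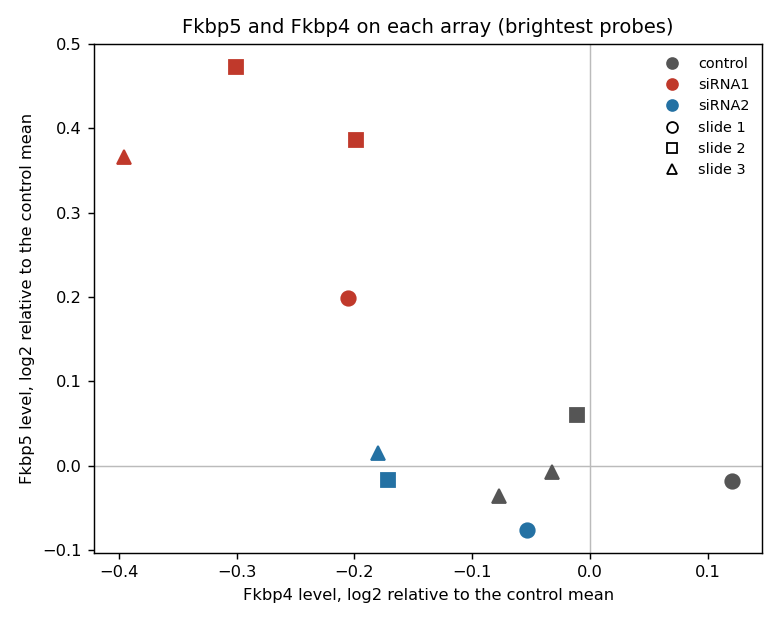
Fkbp5 against Fkbp4 on each of the 11 arrays, both as log2 level relative to the control mean by the brightest probe (color, group; symbol, slide). The 4 siRNA1 arrays lay at the upper left, with Fkbp5 at 0.20 to 0.47 and Fkbp4 at -0.40 to -0.20, and the array nearest the others was that on slide 1.

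Over the 11 arrays, the genes whose levels ran closest to Fkbp4 were Prmt5, an arginine methyltransferase, and Yars and Sars, the tyrosine and serine tRNA synthetases. The root mean square difference in log2 level from Fkbp4 was 0.034 for Prmt5, 0.045 for Yars and 0.053 for Sars, each relative to the gene's control mean. Closest to Fkbp5 were Rasa1, a Ras GTPase-activating protein, at 0.071, Tbl2 at 0.080 and Map4k5, a kinase, at 0.083. These 6 are the nearest of the 11816 genes tested and share the arrays and their scaling with the members.

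The remaining genes of steroid receptor action were taken from 7 lists of 113 genes, of which 108 had a named probe and 96 a tested one. With siRNA1, 34 of the 96 passed, 16 higher and 18 lower, which is 35.4% beside the background of 29.3%. With siRNA2, 30 of 96 passed (16 higher and 14 lower, 31.2% beside 20.2%), and between the siRNAs 29 of 96 (13 higher and 16 lower, 30.2% beside 26.3%). By direction the backgrounds were 10.6% higher and 18.7% lower with siRNA1, 8.01% and 12.2% with siRNA2, and 11.8% and 14.4% between them. The counts of lower genes against control include Igfbp4 with both siRNAs. It met the filter through the control arrays alone and could enter only as a decrease. The median log2 fold change over the 96 was 0.01, 0.02 and -0.03 in these comparisons, beside -0.08, -0.02 and -0.07 over all genes.

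Of the 18 genes of the Hsp90 and Hsp70 machinery that loads the receptors, 2 passed with siRNA1 (11.1%, background 29.3%) and 3 with siRNA2 (16.7%, background 20.2%). Hsp90aa1, the inducible cytosolic Hsp90, fell to 79.9% ± 7.25 of the control mean with siRNA1 (SD, n = 4, limma, adjusted p = 0.0259), a call lost without control array 2 (0.0667), control array 4 (0.0562), siRNA1 array 1 (0.0712) or siRNA1 array 3 (0.0754), and after quantile normalization (0.0949) or median scaling (0.0810). Ppid (cyclophilin 40), which shares the place of Fkbp4 and Fkbp5 on Hsp90, rose with siRNA1 to 126% ± 6.37 (SD, n = 4, limma, adjusted p = 0.00641), and between the siRNAs it differed by 0.43 (limma, adjusted p = 0.00244). With siRNA2, Dnajb1, an Hsp70 partner, fell to 75.6% ± 4.52 (SD, n = 3, limma, adjusted p = 0.0195), a call lost without control array 3 (0.0545), siRNA2 array 1 (0.0707) or siRNA2 array 2 (0.0639), and with median scaling (0.0693). The other Dnajb1 probe fell with both siRNAs, by 0.35 with siRNA1 (limma, adjusted p = 0.0107) and 0.39 with siRNA2 (0.0123). St13, which helps pass the receptor from Hsp70 to Hsp90, fell to 81.4% ± 1.89 (SD, n = 3, limma, adjusted p = 0.0409), a call that held only without control array 3, siRNA1 array 1 or siRNA1 array 4 and was lost without any other array (0.0538 to 0.127), after quantile normalization (0.132) and with median scaling (0.106), and Hspa4, outside the naming rule, also passed. The median over the list was -0.06 with siRNA1 and -0.10 with siRNA2.

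Of 14 other FKBP immunophilins, 4 passed with siRNA1 (1 higher, 3 lower) and 5 with siRNA2 (3 higher, 2 lower). Their shares were 28.6% and 35.7%, beside 29.3% and 20.2% of all genes. Fkbp7, a lumenal protein of the endoplasmic reticulum, moved in opposite directions, to 64.8% ± 6.68 of the control mean with siRNA1 (SD, n = 4, limma, adjusted p = 0.000601) and to 241% ± 7.66 with siRNA2 (SD, n = 3, limma, adjusted p = 1.53e-05). Fkbp14, another endoplasmic reticulum member, rose to 160% ± 13.9 with siRNA2 (SD, n = 3, limma, adjusted p = 0.00116). The other Fkbp14 probe differed by 0.65 there and did not pass (limma, adjusted p = 0.139). Aipl1, an FKBP-like co-chaperone known from photoreceptors, fell with both, to 65.1% ± 7.38 (SD, n = 4, limma, adjusted p = 0.00167) and 59.2% ± 8.51 (SD, n = 3, limma, adjusted p = 0.00110), at low signals of 14.5 to 35.8. Fkbp6 passed with siRNA2 (149% ± 17.3, SD, n = 3, limma, adjusted p = 0.0431) at signals of 13.4 to 31.6, and the call held only without control array 4 or siRNA1 array 4 and was lost without any other array (0.0537 to 0.139), and with extreme local backgrounds replaced before normexp the difference was 0.12 (0.488). The other Fkbp6 probe differed by 0.30 with siRNA2 (limma, adjusted p = 0.528), and the mean over probes by 0.44 (0.135). Fkbp3, the nuclear member with the brightest probe of the list, differed by -0.15 with siRNA1 (limma, adjusted p = 0.135) and -0.04 with siRNA2 (0.819). The other Fkbp3 probe passed with siRNA1 (-0.25, limma, adjusted p = 0.0353) and differed by -0.07 with siRNA2 (0.678). By the mean over probes Fkbp3 also passed with siRNA1 (-0.20, limma, adjusted p = 0.0474), so its call depended on the probe used. The other passing members were Fkbp11 with both siRNAs and Fkbp1b with siRNA1.

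Of 20 nuclear receptor coregulators, 9 passed with siRNA1, 7 higher and 2 lower, and 2 with siRNA2, both higher. As shares these are 45% and 10%, beside 29.3% and 20.2% of all genes. Med1, the Mediator subunit that contacts nuclear receptors, rose to 164% ± 19.3 of the control mean with siRNA1 (SD, n = 4, limma, adjusted p = 0.000650) and 146% ± 13.5 with siRNA2 (SD, n = 3, limma, adjusted p = 0.00726). Ppargc1b, a coactivator, rose to 152% ± 17.1 with siRNA1 (SD, n = 4, limma, adjusted p = 0.0208), a call lost without control array 1 (0.0580) or siRNA1 array 4 (0.0575) and with extreme local backgrounds replaced before normexp (0.26, adjusted p = 0.0609), and to 189% ± 49.9 with siRNA2 (SD, n = 3, limma, adjusted p = 0.00569). Nrip1, a corepressor of hormone-bound receptors, rose with siRNA1 to 151% ± 3.62 (SD, n = 4, limma, adjusted p = 0.00129), and Sra1, a coactivator gene, fell to 57.4% ± 3.99 (SD, n = 4, limma, adjusted p = 0.000125). The median of the list was 0.13 in both comparisons.

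Of 9 estrogen-related receptors, membrane steroid receptors and relatives of Pgrmc1, 7 passed with siRNA1 (2 higher, 5 lower) and 4 with siRNA2 (2 higher, 2 lower). That makes 77.8% and 44.4% of this short list, beside 29.3% and 20.2% of all genes. Gper1, the G protein-coupled estrogen receptor, rose to 181% ± 15.7 of the control mean with siRNA1 (SD, n = 4, limma, adjusted p = 0.00145) and 175% ± 14.1 with siRNA2 (SD, n = 3, limma, adjusted p = 0.00446). Paqr7, a membrane progestin receptor, fell to 59.0% ± 6.11 (SD, n = 4, limma, adjusted p = 0.000245) and 71.7% ± 7.76 (SD, n = 3, limma, adjusted p = 0.00929), and Paqr8, another, fell with siRNA1 to 60.3% ± 6.53 (SD, n = 4, limma, adjusted p = 0.000357). Esrra, the estrogen-related receptor alpha, fell to 55.8% ± 5.66 with siRNA1 (SD, n = 4, limma, adjusted p = 0.000343), stood at 124% ± 21.5 with siRNA2 (SD, n = 3, limma, adjusted p = 0.130) and differed by -1.15 between them (limma, adjusted p = 8.46e-05). Nenf, a relative of Pgrmc1, rose to 159% ± 20.6 with siRNA2 (SD, n = 3, limma, adjusted p = 0.00516) and stood at 128% ± 20.4 with siRNA1 (SD, n = 4, limma, adjusted p = 0.0587), which passed without siRNA1 array 1 (0.0264), with a block for slide (0.31, adjusted p = 0.0245) or for replicate number (0.0258) and after quantile normalization (0.00856). Esrrg, outside the naming rule, fell with both siRNAs.

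**Figure D5:**
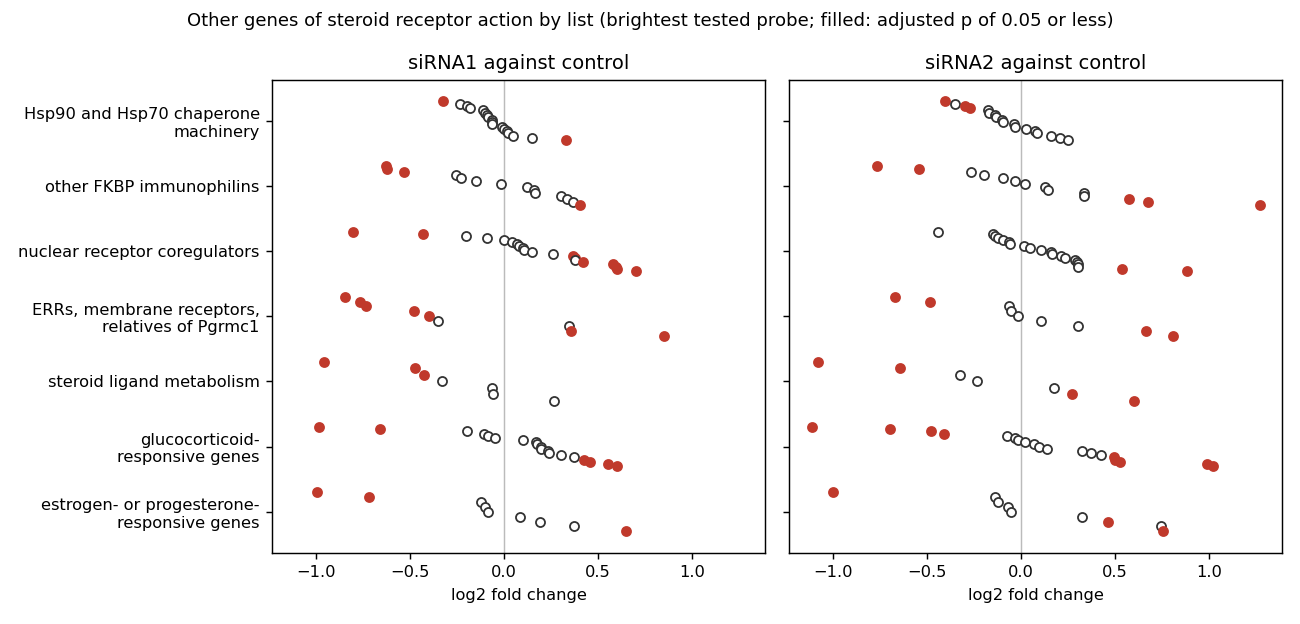
Log2 fold change of the 96 tested list genes by list (points, the brightest tested probe of a gene, ordered within a list), with siRNA1 at the left and siRNA2 at the right, filled where the adjusted p is 0.05 or less. Filled points number 34 with siRNA1 and 30 with siRNA2 and lie on both sides of 0.

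Of 7 genes of ligand metabolism, 3 passed with siRNA1, all lower (42.9%, beside 29.3% of all genes passing and 18.7% passing as lower). With siRNA2, 4 of them passed (2 higher, 2 lower, 57.1% beside 20.2%). Sult1e1, the estrogen sulfotransferase, fell to 51.5% ± 5.10 of the control mean with siRNA1 (SD, n = 4, limma, adjusted p = 7.73e-05) and 64.3% ± 6.27 with siRNA2 (SD, n = 3, limma, adjusted p = 0.00254). Akr1c18, which inactivates progesterone, fell to 47.4% ± 2.91 with siRNA2 (SD, n = 3, limma, adjusted p = 6.99e-05) and stood at 96.4% ± 12.4 with siRNA1 (SD, n = 4, limma, adjusted p = 0.697). Cyp19a1, the aromatase that makes estrogens, rose with siRNA2 to 152% ± 4.48 (SD, n = 3, limma, adjusted p = 0.00292) at signals of 25.2 to 54.5, but with extreme local backgrounds replaced before normexp its difference was 0.17 (limma, adjusted p = 0.228). Srd5a3 fell with siRNA1 to 72.1% ± 5.69 (SD, n = 4, limma, adjusted p = 0.00251), as did H6pd, outside the naming rule. The other Srd5a3 probe differed by -0.46 with siRNA1 and did not pass (limma, adjusted p = 0.0994). Srd5a1, a steroid reductase that acts on testosterone, rose with siRNA2 to 121% ± 4.55 (SD, n = 3, limma, adjusted p = 0.0357), a call that held only without siRNA1 array 1, 2 or 4 and was lost without any other array (0.0506 to 0.140) and with median scaling (0.170).

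Fkbp5 belongs to the genes induced by glucocorticoids. Of 19 others of that kind, 6 passed with siRNA1 (4 higher, 2 lower) and 9 with siRNA2 (5 higher, 4 lower). In percent this is 31.6% and 47.4%, beside 29.3% and 20.2% of all genes. Sgk1, a serum- and glucocorticoid-induced kinase, rose to 152% ± 9.53 of the control mean with siRNA1 (SD, n = 4, limma, adjusted p = 0.000205) and 203% ± 1.71 with siRNA2 (SD, n = 3, limma, adjusted p = 1.64e-05). Nfkbia, the NF-kappaB inhibitor, rose to 199.6% ± 22.5 with siRNA2 (SD, n = 3, limma, adjusted p = 0.000154) and stood at 115% ± 11.4 with siRNA1 (SD, n = 4, limma, adjusted p = 0.188). Lcn2, a secreted lipocalin, fell to 50.5% ± 3.55 (SD, n = 4, limma, adjusted p = 1.55e-05) and 61.7% ± 5.24 (SD, n = 3, limma, adjusted p = 0.000404), and Rgs2, a regulator of G protein signaling, to 63.4% ± 3.57 (SD, n = 4, limma, adjusted p = 0.00350) and 46.2% ± 2.14 (SD, n = 3, limma, adjusted p = 0.000306). Mt2, a metallothionein with the brightest probe of the list, differed by 0.18 with siRNA1 (limma, adjusted p = 0.503) and 0.02 with siRNA2 (0.961). The median of the list was 0.20 with siRNA1 and 0.09 with siRNA2.

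Of 9 genes responsive to estrogen or progesterone, 3 passed with siRNA1 (1 higher, 2 lower) and 3 with siRNA2 (2 higher, 1 lower). Both are 33.3%, beside 29.3% and 20.2% of all genes. Both counts include Igfbp4 among the lower genes, which could enter only as a decrease, so these shares are no evidence of an excess. Greb1, an estrogen-induced gene, rose to 158% ± 21.4 of the control mean with siRNA1 (SD, n = 4, limma, adjusted p = 0.00934) and 170% ± 28.7 with siRNA2 (SD, n = 3, limma, adjusted p = 0.00877). Igfbp4, which binds insulin-like growth factors, counted among these, met the filter through the control arrays alone, so it could enter only as a decrease and its values are given as a description. It stood at 51.4% ± 12.7 with siRNA1 (SD, n = 4) and 50.2% ± 6.91 with siRNA2 (SD, n = 3), at signals of 8.38 to 27.0, and exceeded background clearly on 3 of 4 arrays of siRNA1 but 2 of 3 of siRNA2. Wnt4, a secreted ligand, fell with siRNA1 to 61.0% ± 7.61 (SD, n = 4, limma, adjusted p = 0.000539) and stood at 125% ± 13.4 with siRNA2 (SD, n = 3, limma, adjusted p = 0.0774). Cxcl12, a chemokine, rose with siRNA2 to 138% ± 11.9 by its brightest probe (SD, n = 3, limma, adjusted p = 0.0175), a call lost without siRNA2 array 1 (0.0680) or 2 (0.0615), while its other probe rose by 1.56 with siRNA1 and 0.91 with siRNA2, so its probes disagreed. Ctsd, a lysosomal protease, differed by -0.08 with siRNA1 (limma, adjusted p = 0.725) and -0.05 with siRNA2 (0.882).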

How the data were processed

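The deposited files hold the scanner output of 11 single-color Agilent arrays (Cy3), 1 per RNA sample, and no normalization between arrays had been applied. Per the file headers and labels, the authors extracted spot intensities with Agilent Feature Extraction (version 9.5 in the labels, 9.5.1.1 in the headers), and the deposited processed signal intensities used here are background-corrected by that program. Control spots and outlier-marked spots were left out, the spots of a probe were averaged, and each array was scaled by the 75th percentile of its processed signal before log2. Accessions were turned into gene symbols through a RefSeq gene table, which named 24375 of 41174 probes.

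A single limma model (version 3.58.1, R 4.3.3) was fitted over the 3 groups to the 24248 probes that all arrays of some group had well above background. The moderated test was two-sided, with Benjamini-Hochberg adjustment over all these probes and a threshold of 0.05, and a gene was represented by its brightest tested probe. Single probes were also compared by a two-sided exact permutation test over arrays, which can give no p below 0.0286. Percent values are relative to the geometric mean of the control arrays, and intervals are 95% intervals of the fitted difference. All contrasts share arrays, those against control the same 4 control arrays, so they are not independent of each other. The code was tested on simulated data with known changes.

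All 9 members were named with every probe. Of each other list, up to 4 genes passing against control, by size of change, and the gene with the brightest probe were named, together with the 3 genes most like each member that passed. The members and the lists were chosen with earlier results of these data known. Alternatives were normexp background correction (offset 50) with and without extreme local backgrounds replaced, quantile or median scaling, other filters, outlier spots kept, slide or replicate number as a block, the methods' t-test, a 2-fold threshold, the mean over probes, separate fits and leaving out each array. The precision is limited by the number of arrays.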

Additional observations from a re-analysis of the deposited data

Results flagged for a closer look

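In 2 of the 26 groups of 4 arrays examined, 1 array stood far from the other 3, where chance gives about 1 in 20. For the first Esr1 probe, siRNA1 array 2 was the lowest and the gap between it and the next array took up 0.897 of the range of the siRNA1 arrays. For Pgrmc1, siRNA1 array 1 was the lowest and its gap to the next array took up 0.837 of the range.

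By the brightest probe only Fkbp5 differed between the siRNAs by limma, while a dimmer probe of Fkbp4 also passed. The second Fkbp4 probe differed by -0.31 on the log2 scale (siRNA1 against siRNA2), the first Fkbp5 probe by 0.38 and the second Fkbp5 probe by 0.48, while the first Fkbp4 probe (-0.14) and the third Fkbp5 probe (0.08) did not pass.

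Of the named genes of the lists, 18 differed between the siRNAs by limma, where 26.3% of all genes did. Most named genes were chosen for passing against control, so their share is not comparable with that background. Those higher with siRNA1 were Dnajb1 (0.32), Ppid (0.43), Nrip1 (0.43), Akr1c18 (1.02) and Rgs2 (0.46). Those lower with siRNA1 were Fkbp14 (-0.69), Fkbp7 (-1.90), Sra1 (-0.68), Esrra (-1.15), Paqr8 (-0.72), Cyp19a1 (-0.34), Srd5a1 (-0.34), Srd5a3 (-0.65), Lcn2 (-0.29), Nfkbia (-0.79), Sgk1 (-0.42), Cxcl12 (-0.57) and Wnt4 (-1.04). Against control, Lcn2, Rgs2 and Sgk1 passed in the same direction with both siRNAs and Fkbp7 in opposite directions. The other Dnajb1 probe differed by 0.04 (adjusted p = 0.784). The other Cxcl12 probe differed by 0.65, in the opposite direction. Several of these calls depended on single arrays. The call held only without siRNA1 array 1 for Dnajb1 (adjusted p of 0.0583 to 0.128 without any other), only without siRNA1 array 4 for Cyp19a1 (0.0512 to 0.124) and only without siRNA1 array 2 for Lcn2 (0.0505 to 0.139). That for Rgs2 was lost without siRNA1 array 1, 2 or 3 or any siRNA2 array (0.0663 to 0.114), and that for Srd5a1 without siRNA2 array 2 (0.0507).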

How the results depend on the processing

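Counts of members passing were 2 with siRNA1, 0 with siRNA2 and 1 between the siRNAs. With siRNA1 the count was 0 with normexp correction, 1 after quantile normalization, with median scaling or with no filter on dim probes, 0 with a 2-fold threshold (limma or the methods' t-test with raw p), 3 with slide as a block (Nr3c1 gained) or with extreme local backgrounds replaced before normexp (Nr3c2 gained), and 1 to 3 on leaving out each array, where it was 1 without control array 3 or 4 or siRNA1 array 1 or 3 and 3 without siRNA1 array 2. With siRNA2 it was 0 under every alternative. By the methods' t-test after adjustment Pgrmc1 passed between the siRNAs (adjusted p = 0.0471). Between the siRNAs it was 0 with normexp correction or a 2-fold threshold, 2 by the methods' t-test after adjustment, and 1 to 2 on leaving out each array, with 2 without siRNA1 array 2. Of the other pathway genes, 34 passed with siRNA1, 46 with slide as a block, 2 with normexp correction, 0 with a 2-fold threshold (either test) and 30 to 36 on leaving out arrays. With siRNA2 30 passed, 38 with slide as a block, 0 with normexp correction, 5 with a 2-fold threshold (either test), 19 by the t-test after adjustment and 19 to 29 on leaving out arrays, the lowest without siRNA2 array 2. Between the siRNAs 29 passed, 38 with slide as a block, 1 with normexp correction, 18 with median scaling, 19 with no filter, by the t-test after adjustment or in a fit of both siRNA groups alone, 4 with a 2-fold threshold (either test) and 18 to 25 on leaving out arrays, with 18 without siRNA1 array 3 or siRNA2 array 2. Normexp correction reversed the sign with siRNA1 for Esr1 (-0.13), Nr3c2 (0.63), Pgrmc1 (-0.30), Aipl1 (0.62), Sult1e1 (0.30), Lcn2 (0.079), Mt2 (-0.18) and Igfbp4 (0.71), with siRNA2 for Aipl1 (0.34), Sult1e1 (0.19), Lcn2 (0.032), Mt2 (-0.22) and Igfbp4 (0.39), and between the siRNAs for Nr3c1 (-0.038), Nr3c2 (0.14), Cyp19a1 (0.16) and Lcn2 (0.046). With extreme local backgrounds replaced first, it reversed Srd5a1 with siRNA1 (0.015) and Nr3c2 with siRNA2 (-0.0044), and this setting moved the median of all probes with siRNA1 from -0.05 to -0.11. Quantile normalization reversed Srd5a1 (0.023) and Ctsd (0.015) with siRNA1, and Fkbp5 (0.0035) and Fkbp3 (0.022) with siRNA2. The mean over probes reversed Ctsd with siRNA1 (0.041), Fkbp5 with siRNA2 (0.19) and Cxcl12 between the siRNAs (0.039), and slide as a block reversed Mt2 with siRNA2 (-0.039). On leaving out arrays the sign of these varied: Esr1 (-0.029 to 0.12) and Ctsd (-0.18 to 0.037) with siRNA1, Nr3c2 (-0.022 to 0.12), Mt2 (-0.16 to 0.23) and Ctsd (-0.15 to 0.049) with siRNA2, and Nr3c1 (-0.051 to 0.13) between the siRNAs. The cause was not tested. Arrays with the same replicate number had a median correlation of 0.298 (-0.18 to 0.53 over 10 pairs), and 9 of 11 arrays correlated best with their own number, but numbers largely follow slides (median 0.30 over 13 same-slide pairs) and do not show pairing by culture. With the replicate block, member counts were 2, 0 and 1, pathway counts were 40, 40 and 35, and Ctsd with siRNA2 was 0.024. Low signal limits Esr2, Pgr and 2 of 3 Nr3c2 probes, for which no change could be measured.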
